A study of Homo sapiens with 36 samples.

Results

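The degrader #11 was compared with control esiRNA in untreated FBXW7-/- HCT-116 cells (KO), using 3 libraries labelled KO with #11 and 3 labelled KO esiCT, 6 of the 36 libraries of the series. Members were taken by their titles alone. HCT-116 is a human colorectal carcinoma line, and FBXW7 encodes the part of a ubiquitin ligase that recognises its substrates. Both groups lacked FBXW7, carried esiCT for 48 h and received no oxaliplatin (OXPT). They differed in #11, given over the same 48 h; the dose was entered as 1 µM in the treatment field and treatment protocol and as 10 µM in the description field, so it is not settled. By the study's methods, untreated cells received the solvents, DMSO in the case of #11. The KO cells came from a supplier, and whether they were 1 clone was not stated. The study describes its figures in general as based on independent experiments, but no source used here says so of these libraries. The p-values thus measure spread between libraries within groups, which may be technical. In the main fit that spread was pooled over 24 libraries of 8 groups. The study asked whether removal of class IIa HDACs changes how colorectal cancer cells without FBXW7 respond to OXPT, and the untreated contrast gives the change that #11 made on its own.

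Class IIa HDACs (HDAC4, HDAC5, HDAC7 and HDAC9) have little catalytic activity of their own and act as scaffolds that bring corepressors to transcription factors, chiefly those of the MEF2 family. MEF2 factors bound by them are held repressed, and target genes such as JUN and the NR4A nuclear receptors can be released when the HDAC leaves the chromatin. A PROTAC is a chimeric molecule that binds its target at one end and a ubiquitin ligase at the other, here the VHL ligase, so that the target protein is degraded by the proteasome. RNA-seq does not measure that degradation, only the transcripts.

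The 6 libraries held 12948532 to 20527222 counts on genes, and 12356 genes passed a mean count of 64 in at least 1 of 8 groups. Levels are given as CPM, library-scaled counts after TMM normalisation, in library order 1 to 3. In each group replicate 3 stood apart. The log2 CPM of esiCT 3 correlated with esiCT 1 and 2 at 0.961 and 0.952 across genes, against 0.988 between those 2. For #11 the values were 0.972 and 0.962, against 0.990. Values without esiCT 3 or #11 3 are therefore given beside those that they move by over 1.5 times. Markers of other cell types were close to 0: the summed share of 10 blood markers was 9.51e-05 to 0.000332% of counts, with CD68 at 0 in all 6 libraries, that of 10 fibroblast markers was 0.00290 to 0.00633%, with PDGFRA at 0, and that of 7 endothelial markers was 0.00151 to 0.00223%. The 12 epithelial markers took 0.689 to 0.711% with #11 and 0.645 to 0.968% with esiCT. In these bulk libraries, fewer cells in a state and less RNA per cell cannot be told apart.

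Of the genes called for #11, most rose. Of the 12356 genes tested, 63 were called (0.51%), 47 higher (0.38%) and 16 lower (0.129%), by edgeR's quasi-likelihood test with a Benjamini-Hochberg adjusted p below 0.05 and more than a 1.5-fold difference. The genes that rose included JUN and ATF3, which encode AP-1 and stress transcription factors, CCN1 and CCN2, secreted matricellular proteins, DUSP6 and SPRY4, feedback inhibitors of ERK signalling, EREG, a ligand of EGFR, and PMAIP1, the BH3-only protein NOXA. Among those that fell were PRDX1, a peroxide-reducing enzyme, PGAM1, a glycolytic mutase, TUBB4B, a beta-tubulin, and VCP, an ATPase that extracts ubiquitinated proteins. The 3 and 3 libraries did not overlap for any of the 63, against 17.2% and 14.8% of all genes without overlap upwards and downwards. The 63 were selected on these same libraries, so their separation adds no support. At an unadjusted p below 0.05 there were 1705 genes, 949 higher (7.68%) and 756 lower (6.12%), so the number called is no measure of how many genes differed. The calls lay near the threshold. The count was 0 to 338 when 1 of the 24 libraries in the fit was left out and 3 without esiCT 3. The sign of all 63 was the same under each of the 34 alternatives, which reuse the libraries that selected these genes. DESeq2 called 409 of 12356 genes (235 higher, 174 lower) and edgeR on the 6 libraries alone 566 of 11838 (369 higher, 197 lower). Both included the 63. List counts from either fit below are to be read beside these totals, which exceed those of the main fit. Those from the main fit are to be read beside its shares of all genes given above.

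The transcripts of the proteins that #11 degrades were not called. HDAC4 was 18.4, 14 and 24.9 CPM with esiCT and 21.6, 21.9 and 26.9 CPM with #11, and the groups overlapped (log2 fold change 0.30 ± 0.24, SE; edgeR adjusted p = 0.649). HDAC5 was 37.4, 35.8 and 53 CPM with esiCT and 49.7, 49.8 and 50.6 CPM with #11 (0.25 ± 0.20, edgeR adjusted p = 0.644). HDAC7 was 38.8, 38.9 and 39.9 CPM with esiCT and 47.0, 44.8 and 46.8 CPM with #11 (0.24 ± 0.23, edgeR adjusted p = 0.726). Of these 3, only HDAC7 had no overlap between groups. Without esiCT 3 the log2 fold change was 0.53 for HDAC4 and 0.45 for HDAC5, and without #11 3 it was 0.19 for HDAC4. Counting ignored strand, and opposite-strand genes overlap all 3: HDAC4-AS1 held 13.3% as many counts as HDAC4, G6PC3 197% as many as HDAC5 and SLC48A1 62.5% as many as HDAC7. HDAC9 was below the count minimum, with 26 to 33 raw counts per esiCT library and 36 to 62 per #11 library, which did not overlap either. Silencing gave another picture at the transcript level: with esiHDAC4, HDAC4 was 8.94, 8.80 and 14.9 CPM, and the direct contrast of #11 against esiHDAC4 was 1.11 ± 0.24 on the log2 scale (edgeR adjusted p = 0.0342). Among the 20 tested genes for other HDACs and for corepressor subunits, none was called and the median log2 fold change was 0.00 (-0.01 without esiCT 3), beside -0.00 over all genes tested.

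The ligase that #11 recruits was also measured. VHL, the substrate receptor, was 73.0, 57.8 and 68.3 CPM with esiCT and 71.7, 84.1 and 98.9 CPM with #11, with overlap (0.35 ± 0.18, edgeR adjusted p = 0.40), and the difference was 0.23 without #11 3. None of the 13 tested genes for the ligase and its neddylation machinery was called (median -0.21, -0.11 without esiCT 3 and -0.09 without #11 3). FBXW7 itself was 15.4, 17.2 and 18.1 CPM with esiCT and 15.5, 13.9 and 17.2 CPM with #11. The labels do not say which bases were removed. The study reports a deletion in the KO cells by Sanger sequencing, and counts summed over the gene do not locate it. This level therefore does not check the genotype.

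MEF2 factors and known MEF2 targets leaned upwards. Of 20 tested genes 2 were called higher and 0 lower, beside 0.38% and 0.129% of all genes. At an unadjusted p below 0.05, 13 had a positive and 0 a negative difference, beside 7.68% and 6.12% of all genes. The median log2 fold change was 1.02 (1.02 without esiCT 3). DESeq2 called 5 of the 20 higher, and edgeR on the 6 libraries alone 12 of the 19 that it tested. The called genes were JUN and NR4A3, an orphan nuclear receptor. NR4A3 reached the count minimum only through the #11 group, with mean counts of 18 with esiCT and 79.7 with #11, so its call adds no support to the list. It was at 1.57, 0.682 and 1.32 CPM with esiCT and 6, 5.14 and 3.52 CPM with #11 (2.03 ± 0.41, edgeR adjusted p = 0.039). A lncRNA on the opposite strand overlaps NR4A3, with 40.6% as many counts, and the counting used here ignores strand. Its relatives were not called: NR4A1 differed by 1.03 ± 0.36 and NR4A2 by 0.88 ± 0.32 on the log2 scale (1.32 without esiCT 3). MEF2A was 17, 18.2 and 19.5 CPM with esiCT and 33.6, 32.6 and 44.2 CPM with #11 (1.01 ± 0.38, edgeR adjusted p = 0.224). MEF2C was 15.1, 12.1 and 10.0 CPM against 28.9, 22.4 and 27.4 CPM (1.08 ± 0.47). Neither overlapped between groups, but neither passed the test, and LYSMD4 on the other strand held 47.8% as many counts as MEF2A. MEF2D, at 42.7 to 62.1 CPM with esiCT and 56.5 to 69.7 CPM with #11, differed by 0.27 ± 0.23 (0.41 without esiCT 3). Of further members, KLF2 (1.54 ± 0.47), RHOB (1.02 ± 0.32), EGR1 (2.10 ± 0.61) and EGR3 (2.65 ± 0.63) were above every esiCT library in all #11 libraries without passing the adjusted threshold. Of all genes tested, 17.2% were separated upwards in this way. JUN and EGR1 are counted again in the AP-1 list below, so the lists share members. NR4A1, KLF2 and RHOB were picked after their values were seen.

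The AP-1 and immediate early genes, whose products are made within minutes of growth factor or stress signals, had the highest list median. All 21 tested had a positive log2 fold change, and 4 were called higher, beside 0.38% of all genes. At an unadjusted p under 0.05, 17 were higher, beside 7.68% of all genes. Without overlap between groups were 18, beside 17.2% of all genes upwards. The list median was 1.51 (1.63 without esiCT 3). DESeq2 called 11 of them higher, and edgeR on the 6 libraries alone 14. JUN, the central AP-1 subunit, was 33.9, 46.6 and 33.4 CPM with esiCT and 259, 268 and 238 CPM with #11. Every #11 library was far above every esiCT library (2.75 ± 0.58, edgeR adjusted p = 0.0415). ATF3, a stress-induced partner of JUN, was 16.0, 19.5 and 19.5 CPM against 188, 190 and 137 CPM (3.22 ± 0.65, edgeR adjusted p = 0.039). CREB5, a bZIP factor outside the list and picked after its values were seen, reached the count minimum only through the #11 group, with mean counts of 7 with esiCT and 105.7 with #11; its fold and p are a description. This held for 4 of the 63 called genes, CREB5, NR4A3, SLC22A15 and ENSG00000289843.1. Its levels were low: 0.546, 0.434 and 0.396 CPM with esiCT and 5.70, 6.27 and 7.68 CPM with #11 (3.81 ± 0.86, edgeR adjusted p = 0.0459). EGR1, a zinc finger factor, was 90.8, 92.7 and 118 CPM with esiCT and 477, 454 and 366 CPM with #11 and was not called (2.10 ± 0.61, edgeR adjusted p = 0.111). FOSL2 (0.34 ± 0.31) and IER5 (0.29 ± 0.23), also picked later, overlapped between groups.

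On hg38 in GENCODE 44, JUN spans chr1:58776845-58784048 on the minus strand, ATF3 chr1:212565334-212620777 on the plus strand and CREB5 chr7:28299321-28825894. The sequences upstream of 3 of these genes are shown because binding motifs can be read in them. They are the 250 bases before the RefSeq start, build GRCh38.p14, in the direction of the gene. In JUN capitals mark the CRE core TGACG and the heat shock motif GAANNTTC. In ATF3 (the upstream of its 2 starts) they mark the amino acid response motif TGATGNAA bound by ATF4. The window at the other ATF3 start, not shown, held no match to that motif, to the CRE core or to the AP-1 motif. In CCN2 capitals mark the TEAD motif GGAATG, which occurs 3 times.
JUN, chr1:58784048-58784297, minus strand: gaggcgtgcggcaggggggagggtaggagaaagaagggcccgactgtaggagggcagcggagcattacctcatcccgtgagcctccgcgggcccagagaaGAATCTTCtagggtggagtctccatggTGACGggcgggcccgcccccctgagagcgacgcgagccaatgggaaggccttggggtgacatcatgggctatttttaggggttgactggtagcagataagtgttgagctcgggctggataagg
ATF3, chr1:212565157-212565406, plus strand: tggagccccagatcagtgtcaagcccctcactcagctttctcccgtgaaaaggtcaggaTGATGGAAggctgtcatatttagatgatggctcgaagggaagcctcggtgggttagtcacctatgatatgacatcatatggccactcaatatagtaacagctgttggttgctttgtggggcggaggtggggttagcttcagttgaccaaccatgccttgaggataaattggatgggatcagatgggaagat
CCN2, chr6:131951373-131951622, minus strand: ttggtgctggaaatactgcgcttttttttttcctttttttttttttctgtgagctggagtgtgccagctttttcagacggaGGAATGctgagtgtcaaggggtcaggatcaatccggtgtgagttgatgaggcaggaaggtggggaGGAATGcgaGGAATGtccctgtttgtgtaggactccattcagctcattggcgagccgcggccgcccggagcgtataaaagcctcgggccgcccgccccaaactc
The motifs, searched on both strands, were chosen after the values were seen. Of the genes tested, 9475 matched a RefSeq window by symbol, among them 37 of the 47 called higher and 10 of the 16 called lower. The TEAD motif was in a window of 8 of the 37 (AJUBA, AMOTL2, CCN2, EREG, MKKS, NR4A3, RUNX2 and YAP1), of 2 of the 10 called lower and of 12.7% of the 9475, and the CRE core in 14 of the 37, 5 of the 10 and 36.5% of all. The amino acid response motif was in 4 of the 37 (AJUBA, ATF3, CREB5 and SSH1), 0 of the 10 and 2.16% of all. The AP-1 motif TGANTCA was in 2 of the 37 (CREB5 and RUNX2) and 5.97% of all. The CRE TGACGTCA, which contains the CRE core, was in 0 of the 37 and 3.60% of all. CREB5, and NR4A3 in the TEAD and CRE core counts, reached the count minimum only through the #11 group, so their matches add no support. A match describes letters, not binding.

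Some further called genes are given singly, with no list fixed for them; YAP1 and AJUBA were picked after their values were seen. YAP1, a transcriptional coactivator, was 78.0, 65.0 and 111 CPM with esiCT and 205, 209 and 170 CPM with #11 (1.20 ± 0.22, edgeR adjusted p = 0.039). AMOTL2, an angiomotin family protein, was 17.1, 26.9 and 22.2 CPM against 85.1, 82.4 and 44.8 CPM (1.68 ± 0.28, edgeR adjusted p = 0.0376). AJUBA, a LIM domain protein, was 30.5, 32.9 and 26.6 CPM against 80.6, 84.9 and 42.3 CPM (1.21 ± 0.25). In AMOTL2 and AJUBA the third #11 library was the lowest of its group, and it still lay above all esiCT libraries. Of the AP-1 list, CCN1 was 10.4, 13.8 and 9.63 CPM with esiCT and 64.2, 67.4 and 33.6 CPM with #11 (2.29 ± 0.51, edgeR adjusted p = 0.0459), and CCN2 was 1.02, 2.98 and 2.51 CPM against 9.70, 10.5 and 11.1 CPM (2.26 ± 0.47, edgeR adjusted p = 0.039).

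Feedback genes of ERK signalling and ligands and receptors of the EGFR family leaned upwards too. Of 20 tested 3 were called higher and 0 lower, beside 0.38% and 0.129% of all genes. At an unadjusted p under 0.05, 13 were higher, beside 7.68% of all genes. All 20 had a positive log2 fold change, and the median was 0.99 (1.09 without esiCT 3). DESeq2 called 6 of the 20 higher, and edgeR on the 6 libraries alone 9. DUSP6, the phosphatase of ERK, was 124, 90.5 and 216 CPM with esiCT and 637, 705 and 432 CPM with #11 (2.04 ± 0.43, edgeR adjusted p = 0.0401). EREG, an EGFR ligand, was 314, 352 and 320 CPM against 831, 913 and 781 CPM (1.36 ± 0.30, edgeR adjusted p = 0.0459). SPRY4, an inhibitor of receptor tyrosine kinase signalling, was 86.5, 100 and 110 CPM against 187, 198 and 184 CPM, a narrow spread (0.94 ± 0.19, edgeR adjusted p = 0.039). AREG, a ligand of the same receptor, was 274, 207 and 353 CPM against 1252, 1232 and 850 CPM and was not called (2.00 ± 0.70, edgeR adjusted p = 0.179). ERRFI1, which inhibits EGFR, was not called either (1.14 ± 0.30, edgeR adjusted p = 0.0875).

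Targets of ATF4, the factor of the integrated stress response that is translated when general translation is reduced, had a median of 1.18 (0.97 without esiCT 3). Of 24 tested 1 was called higher, ATF3, which is also in the AP-1 list, beside 0.38% of all genes. At an unadjusted p below 0.05, 16 had a positive and 0 a negative difference, beside 7.68% and 6.12% of all genes. A positive sign was found in 23. DDIT3, the proapoptotic factor CHOP, was 15.9, 11.0 and 7.92 CPM with esiCT and 115, 107 and 93.9 CPM with #11 without passing the threshold (3.18 ± 0.87, edgeR adjusted p = 0.0908). MARS1 overlaps DDIT3 on the opposite strand and held 574% as many counts, so its level is uncertain. TRIB3, a pseudokinase, was 54.2, 92.7 and 39.4 CPM against 387, 370 and 217 CPM (2.39 ± 0.61, edgeR adjusted p = 0.0824). SESN2 (2.34 ± 0.59) and CEBPG (1.44 ± 0.39) also had no overlap between groups, as had 17.2% of all genes upwards. Called by edgeR on the 6 libraries alone were 14 of the 24, by DESeq2 5.

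In the apoptosis lists PMAIP1 was the 1 gene called. It was 32.6, 38.6 and 32.2 CPM with esiCT and 118, 150 and 135 CPM with #11 (1.96 ± 0.41, edgeR adjusted p = 0.039), and it was 1 of 15 BCL2 family genes and 1 of 29 p53 targets called. The list medians were 0.28 and 0.31, the latter 0.17 without #11 3. BBC3, the BH3-only protein PUMA, was 23.5, 19.2 and 38.1 CPM against 68.2, 71.6 and 58.4 CPM (1.30 ± 0.40, edgeR adjusted p = 0.132), and MCL1, a survival protein, was 122, 131 and 151 CPM against 211, 239 and 216 CPM (0.72 ± 0.21, edgeR adjusted p = 0.106). The p53 targets CDKN1A (0.41 ± 0.35) and MDM2 (-0.11 ± 0.48, and -0.29 without esiCT 3) were not called. Of 21 death receptor and caspase genes 0 were called and 11 had a positive sign. Their median was 0.02 (0.01 without esiCT 3 and 0.13 without #11 3). TNFRSF10B, a TRAIL receptor, differed by 1.24 ± 0.36, and TRADD, the lowest of the list, by -0.67. Of 14 tested genes that the study names for its RNA-seq or measures by RT-PCR, PMAIP1 was the 1 called; that list was chosen by the study on this experiment.

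Cytosolic heat shock chaperones had the lowest median of the lists with members tested. All 16 tested had a negative log2 fold change, and 12 were lower at an unadjusted p under 0.05, beside 6.12% of all genes. However, 0 were called by edgeR in the fit of 24 libraries. On the 6 libraries alone edgeR called 7 lower, as did DESeq2. The median was -1.09 (-1.21 without esiCT 3). HSPA1B, an inducible HSP70, was 143, 156 and 60.8 CPM with esiCT and 22.2, 24.0 and 51.2 CPM with #11 (-1.89 ± 0.43, edgeR adjusted p = 0.0524); it shares nearly identical sequence with HSPA1A, so the split of reads between them is uncertain. HSPA1A stayed below the count minimum, with 28 to 52 raw counts per esiCT library and 8 to 15 per #11 library. Of 2 abundant members picked after their values were seen, HSPA8 was 1957, 2163 and 673 CPM with esiCT and 333, 267 and 392 CPM with #11 (-2.27 ± 0.71), and HSP90AA1 was 4534, 4773 and 1141 CPM against 935, 727 and 942 CPM (-2.0 ± 0.70). In all 3 genes esiCT 3 lay between the other esiCT libraries and the #11 libraries. Summed over the 17 listed genes, the share of counts was 0.741 to 1.78% with esiCT and 0.496 to 0.606% with #11 (exact two-sided permutation test, p = 0.1, the smallest that 3 against 3 allows). The upstream 250 bases of HSPA1B hold 1 heat shock motif GAANNTTC (capitals), which 5.46% of the 9475 genes carry in a window.
HSPA1B, chr6:31827488-31827737, plus strand: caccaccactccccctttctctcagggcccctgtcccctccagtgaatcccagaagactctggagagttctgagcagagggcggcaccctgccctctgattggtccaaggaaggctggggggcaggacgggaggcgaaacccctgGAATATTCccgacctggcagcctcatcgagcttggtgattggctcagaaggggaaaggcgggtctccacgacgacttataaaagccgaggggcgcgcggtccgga

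Glycolysis, HIF target and proteasome genes had negative medians with few calls. Of 19 glycolysis genes 1 was called lower, all 19 had a negative sign and the median was -0.71; without esiCT 3 it was -0.43. PGAM1 was 582, 535 and 860 CPM with esiCT and 228, 267 and 232 CPM with #11 (-1.44 ± 0.29, edgeR adjusted p = 0.039). LDHA, lactate dehydrogenase, was 1605, 1580 and 2603 CPM against 629, 646 and 969 CPM (-1.37 ± 0.43, edgeR adjusted p = 0.137). For both the esiCT 3 library was the highest. HIF targets, which respond to the natural substrate of VHL, had a median of -0.78 over 29 genes with 0 called, and -0.43 without esiCT 3, a change of more than 1.5 times; PFKFB4 differed by -1.86 ± 0.52. All 30 tested proteasome subunits had a negative sign, and 18 were lower at an unadjusted p under 0.05, beside 6.12% of all genes. Of these subunits 0 were called, and the median was -0.48. PSMD3 differed by -0.87 ± 0.22. Called lower by DESeq2 were 3 glycolysis genes, 2 HIF targets and 5 proteasome subunits, and by edgeR on the 6 libraries alone 6, 3 and 2. Nuclear genes for OXPHOS subunits had a median of -0.31 over 61 genes with 0 called. Transcripts of the mitochondrial genome took 7.11 to 8.39% of counts with #11 and 6.21 to 6.49% with esiCT (exact two-sided permutation test, p = 0.1), and their part in the results above was not tested.

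Further genes that fell came from several groups. PRDX1 had the smallest p of all, at 817, 925 and 715 CPM with esiCT and 253, 267 and 350 CPM with #11 (-1.5 ± 0.22, edgeR adjusted p = 0.0104), and it was called in 20 of the 24 fits that left out 1 library. TUBB4B was 758, 839 and 930 CPM against 328, 345 and 316 CPM (-1.35 ± 0.25, edgeR adjusted p = 0.039). The groups were far apart for both, though reads of peroxiredoxin and tubulin paralogs can be split unevenly. SDF2L1, an endoplasmic reticulum protein of chaperone complexes, fell by 1.10 on the log2 scale (SE 0.24), the 1 called of 20 genes for chaperones and sensors of that compartment; ERN1, its stress sensor IRE1, was higher by 1.28 ± 0.31 without passing. VCP fell from 318, 315 and 303 CPM to 195, 195 and 156 CPM (-0.77 ± 0.16). FSCN1, which bundles actin, fell from 557, 533 and 678 CPM to 287, 288 and 305 CPM (-1.01 ± 0.21). G2 and mitosis genes had a median of -0.77 with 0 of 26 called (3 by DESeq2 and 3 by edgeR on the 6 libraries alone) and 9 lower at an unadjusted p under 0.05; among called genes CCNF, cyclin F, fell by 1.01 on the log2 scale. NRF2 targets other than PRDX1 were not called (median of 19, -0.19), nor were the 23 genes of cholesterol synthesis (median -0.54).

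Among the remaining genes that rose were PDGFB, a growth factor (1.73 ± 0.38), KRT23, a keratin (1.80 ± 0.35), NR1D1, a clock repressor (1.70 ± 0.37), SLFN5 (2.07 ± 0.44), KLF5, a Krüppel-like factor whose protein is an FBXW7 substrate (1.20 ± 0.24), and RAD52, a recombination protein (0.85 ± 0.18). RAD52 was the 1 gene called of 24 tested for homologous recombination and the Fanconi pathway (median -0.19, -0.47 without esiCT 3). For NR1D1 the opposite-strand gene THRA held 59.8% as many counts. In all, 6 of the 63 called genes overlap a gene with over 10% as many counts. Of the genes that the study linked to super-enhancers losing acetylation on HDAC4 silencing under OXPT, 1 of 61 was called higher, ATP9A, named after its value was seen (median 0.24), and of those linked to gains 0 of 24 (median 0.14, 0.22 without esiCT 3 and 0.06 without #11 3).

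The same comparison was made in KO cells under 50 µM OXPT for the last 24 h, with 6 other libraries. For the 47 genes called higher the median log2 fold change was 1.39 untreated and 0.24 under OXPT, and for the 16 called lower it was -1.01 and -0.11. These genes were selected by their untreated difference. Smaller values in libraries not used for that selection therefore do not by themselves show a weaker effect. The sign was the same under OXPT for 42 of the 63 genes (66.7%), beside 63% of all genes tested. The OXPT libraries were without overlap in the direction of the untreated change for 18 of the 63, beside 1234 of all 12356. Whatever the untreated sign, 9.46% of all genes were without overlap upwards under OXPT and 4.89% downwards. DUSP6 differed by 1.60 under OXPT, RGS6, a regulator of G protein signalling picked after its values were seen, by 2.07 and SPRY4 by 0.91, with no overlap between libraries. JUN (-0.64), ATF3 (-0.25) and CCN1 (-1.18) had the opposite sign there, with overlap between libraries. AJUBA (-0.55) and MOSMO (-0.36), the latter also picked after its values were seen, had the opposite sign without overlap. With esiCT under OXPT, JUN was 69.3, 175 and 65.7 CPM, ATF3 83.0, 113 and 80.7 CPM and CCN1 57.1, 156 and 53.9 CPM. All of these lay above every untreated esiCT library. The AP-1 list had a median of 1.51 untreated and -0.10 under OXPT, the ATF4 list 1.18 and -0.12, and the heat shock list -1.09 and -0.23. In the test of the difference itself 0 of 12356 genes were called by edgeR, 863 had an unadjusted p under 0.05 and DESeq2 called 30; the difference for JUN was 3.39 ± 0.80 (edgeR adjusted p = 0.22) and for ATF3 3.48 ± 0.87 (edgeR adjusted p = 0.33). One control library under OXPT, esiCT 3, stood far from the others of its group, with a correlation of 0.877 and 0.884. Without it the medians under OXPT were 0.17 for the genes called higher, -0.06 for those called lower, 0.05 for the AP-1 list, 0.04 for the ATF4 list and -0.30 for the heat shock list.

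**Figure D1:**
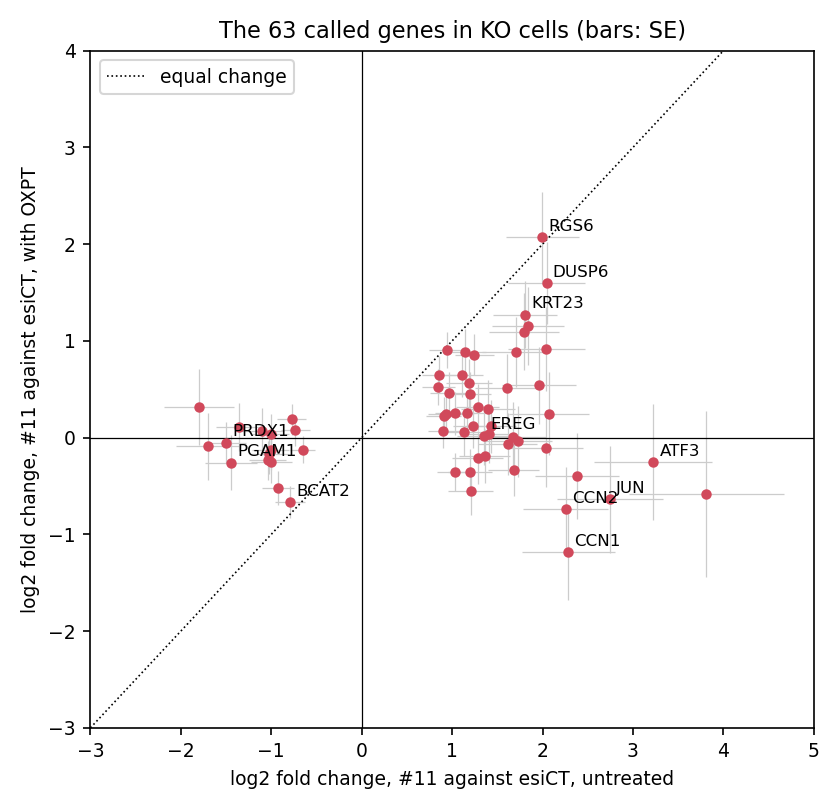
Log2 fold change of #11 against esiCT for the 63 called genes, untreated (horizontal) and under OXPT (vertical), in KO cells. Bars are standard errors and the dotted line marks equal change. Most genes called higher lie below the line, with medians of 1.39 and 0.24, but the genes were selected by their untreated value.

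Silencing of HDAC4 alone was compared with #11 directly. The direct contrast called 145 genes (1.17%), 124 higher and 21 lower with #11 than with esiHDAC4, and DESeq2 458. It shares the #11 libraries with the contrast above. Of the genes named from it, JUN was 25.1, 22.1 and 32.7 CPM with esiHDAC4, and its difference was 3.26 ± 0.60 (edgeR adjusted p = 0.0285). For ATF3 it was 2.96 ± 0.64, for TRIB3 3.01 ± 0.62 and for DDIT3 3.66 ± 0.89 (edgeR adjusted p = 0.0472). PRDX1, at 880, 930 and 775 CPM with esiHDAC4, was lower with #11, with a log2 difference of -1.57 ± 0.22 (edgeR adjusted p = 0.00266), and it was -1.39 ± 0.29 for PGAM1 and -1.28 ± 0.30 for INCENP, a subunit of the mitotic passenger complex. Of 12356 genes, esiHDAC4 against esiCT called 0 higher and 1 lower, with 114 higher and 280 lower at an unadjusted edgeR p below 0.05. For EREG, AMOTL2, PMAIP1, CCN1 and YAP1, among others, the esiHDAC4 libraries were all above the esiCT libraries. None of these was called against esiCT, and the share of all genes so separated was not counted. EREG was 549, 589 and 538 CPM with esiHDAC4, its difference from #11 was not called (0.59 ± 0.30), and against esiCT, whose libraries both comparisons share, it was 0.77 ± 0.30. AMOTL2 was 57.0, 58.7 and 43.9 CPM with esiHDAC4, the difference from #11 was 0.41 ± 0.27 (edgeR adjusted p = 0.493), and against esiCT it was 1.27 ± 0.28. Against esiCT the esiHDAC4 difference was 0.68 ± 0.40 for PMAIP1, 1.11 ± 0.50 for CCN1 and 0.59 ± 0.22 for YAP1, none of them called. The doses and means of HDAC4 removal differ between the groups, and protein levels were not measured by these files.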

How the data were processed

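Poly(A) RNA of HCT-116 cells was sequenced by the authors, who deposited 1 table of raw counts per gene for each library, whole numbers without normalization. The submitters' processing notes name Trimmomatic 0.39, STAR 2.7.11a and hg38; which annotation was counted is not given in the sources used here. In its methods the study describes salmon and DESeq2, another route. The kit is stranded by its label, but reverse-strand and forward-strand counts were nearly equal (ratio 1.0066 to 1.0103 in the 6 libraries), and counting the reverse strand left 42.2 to 43.3% of reads on no feature, so the unstranded column was used. Unmapped reads made up 8.46 to 10.1%. Gene names came from GENCODE 44, in which 62686 of 62757 identifiers matched, 62130 of them with their version, and 67.5% of the genes had a symbol.

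Groups came from the labels. The 24 libraries of 8 groups of 3 shared 1 model, in R 4.3.3 with edgeR 4.0.16 (TMM, quasi-likelihood F test). Left out were 12 wild-type libraries with conflicting labels. The 6 with conflicting esiRNA entries stood in no contrast, but entered the estimate of spread, the count filter and the normalisation. Genes needed a mean count of 64 in at least 1 group. A gene was called at a p below 0.05 after Benjamini-Hochberg adjustment if it differed by more than 1.5-fold. Each standard error was the log2 fold change divided by the root of its F value. The test was tried on simulated data. Replicates differed by more than sampling noise (chi-square per degree of freedom 8.31 to 57.5 in the 6 libraries). Alternatives were DESeq2 1.42.0, RLE scaling, other filters, strand and library sets, and each library left out.

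Genes were named by rule: up to 12 called genes at each end of the log2 fold change, if both group means reached 64 counts and libraries did not overlap, the 4 smallest p of each list, the class IIa HDACs, MEF2 and VHL ligase genes and those the study names, and the 4 highest and lowest of the direct contrast; others are said to be picked later, and the genes listed by motif are among those. The members and lists were chosen with earlier results of these data known.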

Additional observations from a re-analysis of the deposited data

How the results depend on the processing

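For #11 against esiCT, 63 genes were called, and the count rested on the settings. It moved to 409 with DESeq2, 480 without a count filter, 566 in the 6 libraries alone, 375 in the 18 KO libraries and 397 with a replicate block; with the block in the 6 libraries it was 59, of which 19 were among the 63. Replicate numbers did not pair the libraries (correlations of deviations 0.11, -0.25 and -0.17). Chosen after seeing the data, leaving out the third replicates of both groups gave 5. Leaving out each of the 24 libraries gave 0 to 338. The count fell to 0 without esiCT 1, esiCT 2, #11 1 or #11 2, to 3 without esiCT 3 and 4 without #11 3. It fell to 1 without any 1 of the untreated esiHDAC4 libraries, esiHDAC4 OXPT 2, #11 OXPT 2 or WT OXPT 2, to 33 without #11 OXPT 1 and 41 without esiCT OXPT 2. It rose to 108 without esiCT OXPT 3, 111 without WT untreated 2 and 338 without WT untreated 3. For the difference from the #11 effect under OXPT, 0 became 30 with DESeq2, 65 without a filter, 20 in the groups of the contrast, 71 in the KO libraries, 15 with a replicate block and 11 with it in the groups of the contrast; leave-outs gave 0 to 39, with 2 without #11 3 and 39 without WT untreated 3. For #11 against esiHDAC4, 145 became 458 with DESeq2, 741 without a filter, 70 on the reverse strand, 1751 in the groups of the contrast, 562 in the KO libraries, 584 with a replicate block, 1386 with it in the groups of the contrast and 8 without the third replicates; leave-outs gave 1 to 475. No named gene reversed in a call. The cause of these shifts was not tested. Genes near the count minimum, such as NR4A3 and CREB5, are limited by depth.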
